A study of Mus musculus with 6 samples.

Results

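The genes described here are 8 that early B cells use to build and read their first antigen receptor: Vpreb1, Vpreb2 and Igll1, which make the surrogate light chain, Vpreb3, Mzb1, Iglc1, Cd79a and Cd79b. They were taken by symbol, 8 of the 31053 genes counted, and were selected on their lower counts at 57 weeks, so their values across age are a description with no test. UMIs (unique molecular identifiers, each marking 1 captured transcript) were counted in stromal vascular cells of inguinal white adipose tissue (iWAT) of male C57BL/6 mice, after CD45+ immune cells had been sorted out and the inguinal lymph node removed. Young (9 weeks) and aged (57 weeks) mice were kept at 30 °C (TN) or moved to 6 °C for the last 3 days (3D cold) or 14 days (14D cold). All mice had first been housed at 30 °C, no allele or agent is named for any group, and the mice came from either the National Institute of Aging or the Jackson Laboratories. Each age and temperature gave 1 library, 6 libraries and 68103 barcodes called as cells in all. The methods state that mice were pooled only where so indicated and do not give the number of mice behind a library. The spread between libraries of an age therefore holds the temperatures as well as the animals.

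In bone marrow, a B-cell precursor first rearranges its heavy chain, and the product is tested before any light chain exists by pairing it with a surrogate made of VpreB and lambda 5. This pre-B-cell receptor signals through Cd79a and Cd79b, and the surrogate genes are shut off as the cell moves on to rearrange its kappa or lambda light chain. Transcripts of Vpreb1, Vpreb2 and Igll1 are for that reason classical marks of pro-B and early pre-B cells, whereas Cd79a and Cd79b stay on in mature B cells.

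The libraries of young mice held 10172 to 12033 barcodes and 87219354 to 88508349 UMIs, and those of aged mice 11218 to 11903 barcodes and 52068837 to 74590296 UMIs. A barcode held a median of 7225 to 8954 UMIs in young libraries. The median was 6232 at TN and 6540 after 3 days in aged mice, and fell to 2588 in the aged 14D cold library. The labelled cell fraction matched its markers, with Pdgfra, a marker of fibroblasts, in 64.4% of all barcodes. Ptprc, which encodes CD45, was detected in 482 barcodes, 0.708% of the total. Of 67565 distinct barcode sequences, 524 occurred in more than 1 library, with 30 to 44 shared by any pair. No doublet caller was run. Among 15730 genes tested for age in the summed libraries, 4.24% were lower and 4.76% higher in aged mice (edgeR, quasi-likelihood F test, Benjamini-Hochberg adjusted p under 0.05).

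Vpreb1 (ENSMUSG00000059305) and Vpreb2 (ENSMUSG00000059280) are paralogues that encode the V-like part of the surrogate light chain, and Igll1 (ENSMUSG00000075370) encodes lambda 5, its constant-like partner. In GRCm38, Vpreb1 is at chr16:16868403-16870843 on the minus strand, 4418 bases from Igll1 at chr16:16860671-16863985 on the same strand, and Vpreb2 lies 1109585 bases further along at chr16:17980428-17981273 on the plus strand. The annotated transcripts of Vpreb1 and Vpreb2 were 97.4% identical over 759 aligned bases, with 20 differing bases, 12 of them in the last 300 aligned bases, and a longest identical stretch of 196 bases. Reads of a 3′ assay can thus be split between both genes or discarded, and their separate levels are uncertain. Vpreb1 also overlaps Top3b on the other strand by 108 bases.

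The sequences around their start sites are shown because these genes were found in the same barcodes. Each line gives 250 bases before and 50 bases after the RefSeq start on GRCm38.p6, 5′ to 3′ on the gene's strand, with E-box matches (CAGNTG, read on both strands) in capitals. Entries were found for 5 of the 8 genes, and 3 are printed:
Vpreb1: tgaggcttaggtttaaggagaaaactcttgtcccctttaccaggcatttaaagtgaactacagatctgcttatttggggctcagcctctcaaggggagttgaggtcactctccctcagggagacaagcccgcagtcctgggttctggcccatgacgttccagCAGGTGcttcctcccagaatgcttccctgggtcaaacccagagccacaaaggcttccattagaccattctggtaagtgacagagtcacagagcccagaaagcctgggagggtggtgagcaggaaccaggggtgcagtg
Vpreb2: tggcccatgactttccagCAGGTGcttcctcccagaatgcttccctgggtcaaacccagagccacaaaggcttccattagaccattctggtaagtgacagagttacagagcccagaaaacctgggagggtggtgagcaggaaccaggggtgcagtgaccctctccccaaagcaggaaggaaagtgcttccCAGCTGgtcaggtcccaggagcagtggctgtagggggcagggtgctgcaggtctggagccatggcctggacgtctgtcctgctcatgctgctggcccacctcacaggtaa
Igll1: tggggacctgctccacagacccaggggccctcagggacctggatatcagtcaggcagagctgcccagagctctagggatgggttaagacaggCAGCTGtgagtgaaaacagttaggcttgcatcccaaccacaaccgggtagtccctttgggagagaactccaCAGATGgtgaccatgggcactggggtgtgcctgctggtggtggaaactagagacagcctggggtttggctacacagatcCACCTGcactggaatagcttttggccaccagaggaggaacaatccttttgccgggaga
These windows lie at chr16:16869206-16869505 (minus strand), chr16:17980315-17980614 (plus strand) and chr16:16863936-16864235 (minus strand). The Vpreb1 and Vpreb2 windows shared a stretch of 156 aligned bases that was 98.1% identical. The E-box letters occurred once for Vpreb1, 88 bases before the start. In Vpreb2 they occurred 232 and 60 bases before it, and in Igll1 158, 87 and 8 bases before it. Distances are from the RefSeq start, which differs from the GENCODE positions above for Vpreb1 and Vpreb2. By those positions the Vpreb1 window lies wholly within the gene. The Vpreb2 gene begins inside its window, ahead of the RefSeq start. Of 32851 mouse promoter windows of the same length, 51.4% held the same letters, so that they are common in promoters.

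The surrogate light chain genes were low in every library and lowest in aged mice. Vpreb2 had 31 UMIs in the young TN library, 23 in the young 3D cold library and 29 in the young 14D cold library, and none in any of the 3 aged libraries. The young libraries had 0.350, 0.263 and 0.332 CPM (UMIs of the gene per 1000000 UMIs of the library). Against the limit of 3 counts over the aged group, the young level was at least 20.5-fold higher. Igll1 had 45, 39 and 105 UMIs in the young libraries in the same order and 1, 0 and 1 in the aged libraries. The ratio of the young to the aged level was 70.1, with a 95% counting interval of 19.1 to 583. Intervals and limits here and below cover counting error only.

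Vpreb1 was detected in every library. It had 171, 122 and 239 UMIs in the young TN, 3D cold and 14D cold libraries and 51, 44 and 37 UMIs in the aged libraries. The mean level was 2.02 ± 0.677 CPM (SD, n = 3) in young and 0.682 ± 0.0814 CPM in aged libraries, a 2.99-fold difference of the pooled counts. The ages did not overlap for Vpreb1, Vpreb2 or Igll1.

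**Figure D1:**
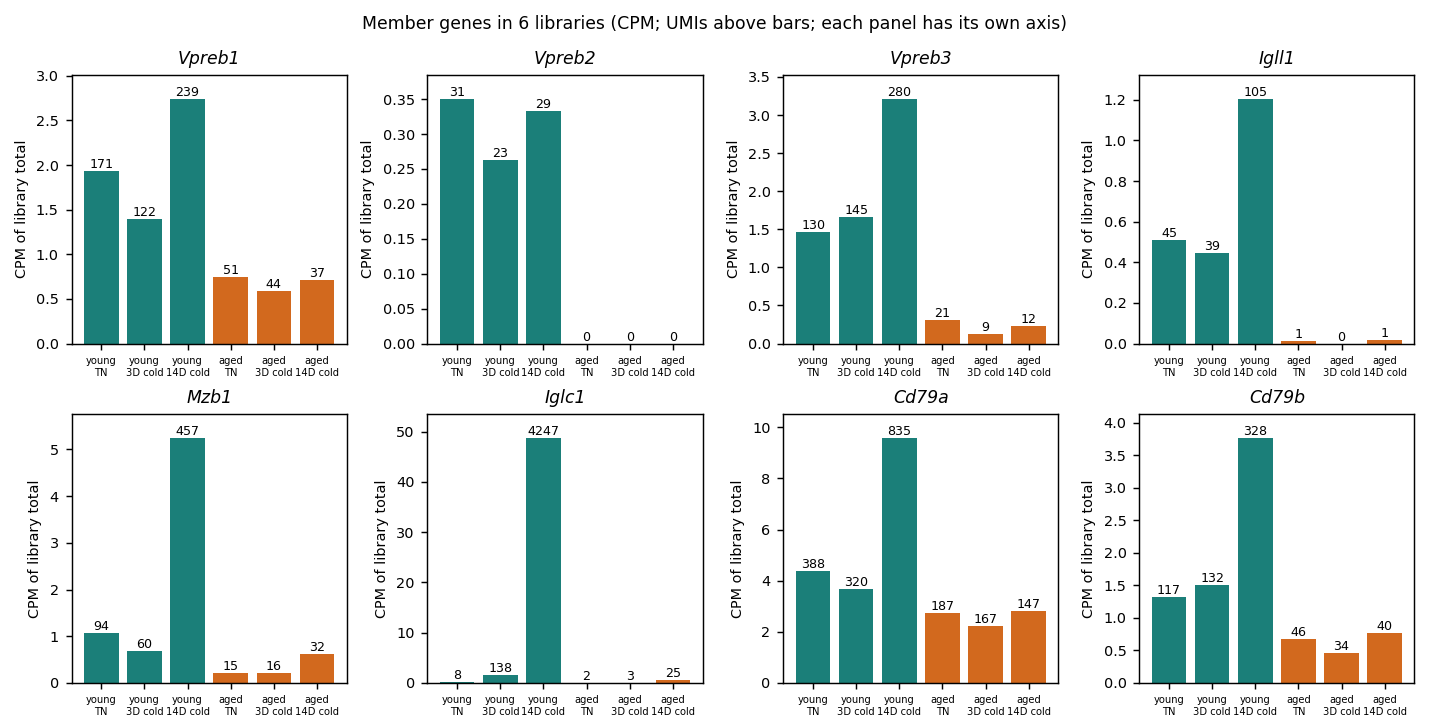
Level of each of the 8 genes in the 6 libraries, in CPM of the library total on an axis of its own per panel, with the number of UMIs above each bar; young libraries are green and aged libraries orange. Only in the Iglc1 panel does a young library (8 UMIs at TN) fall below an aged one (25 UMIs after 14 days of cold).

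The barcodes behind the Vpreb1 counts were of 2 kinds. In young libraries 198 of 226 positive barcodes held a single Vpreb1 UMI, and in aged libraries 128 of 130 did. Barcodes with 2 or more numbered 6, 7 and 15 in young libraries and 1, 1 and 0 in aged ones. The highest count in 1 barcode was 36 in a young library and 2 in an aged one. Single UMIs were far fewer for Vpreb2 and Igll1, which had 21 and 32 positive barcodes in young libraries. Of these, 11 and 10 held 1 UMI, and 10 and 22 held 2 or more. In aged libraries Igll1 had 2 positive barcodes, each with 1 UMI.

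**Figure D2:**
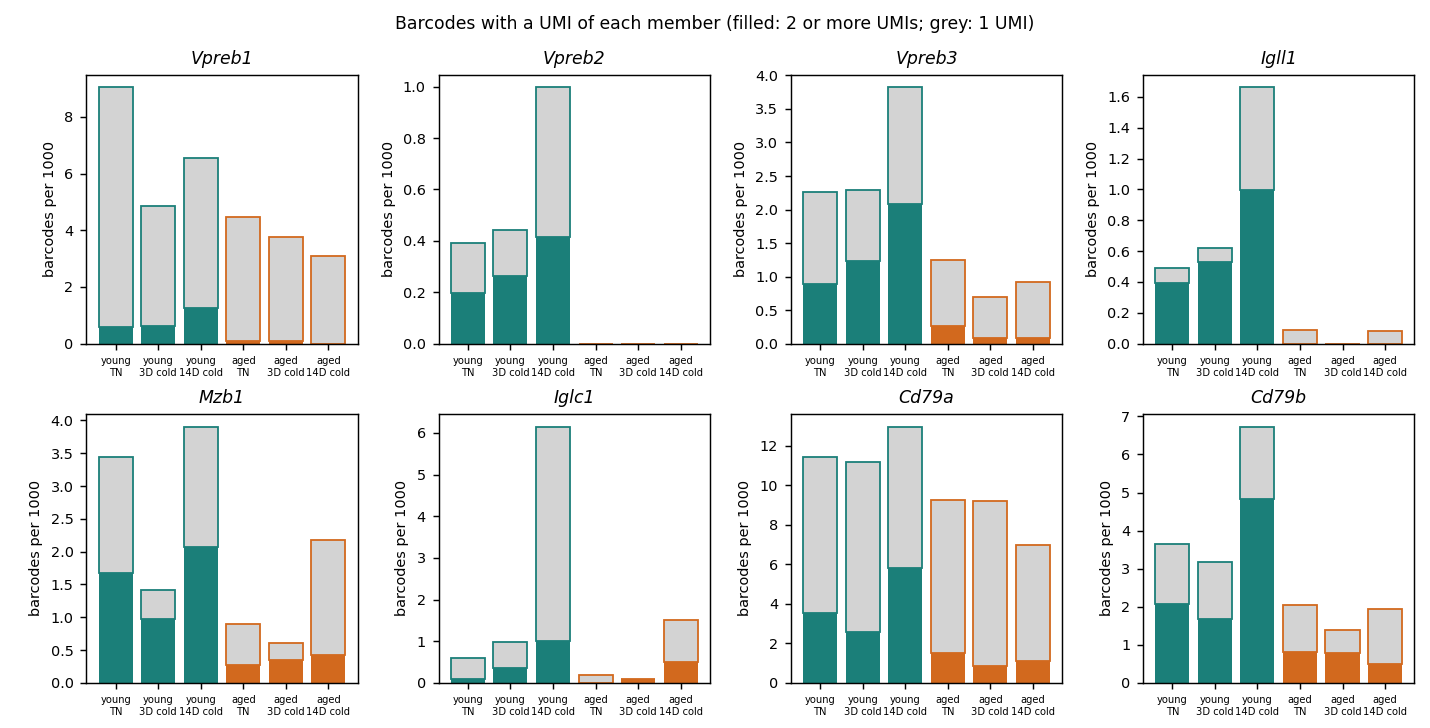
Barcodes per 1000 with a UMI of each gene in the 6 libraries, stacked as barcodes with 2 or more UMIs (filled) and with 1 UMI (grey), each panel on its own axis. For Vpreb1 most of each bar is grey at both ages, and filled parts are almost confined to the young libraries (28 barcodes against 2).

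Of the 21 barcodes with Vpreb2, 18 also held Vpreb1 and 16 held Igll1, and 24 of the 34 barcodes with Igll1 held Vpreb1. Barcodes with at least 2 of these 3 genes, called surrogate light chain barcodes below, numbered 26, a rule set after these values were seen. All 26 were from young mice, with 4 of 10172 barcodes at TN, 6 of 11342 after 3 days and 16 of 12033 after 14 days of cold. None was found among 34556 aged barcodes, which allows a share of up to 0.00868%, against 0.0775% in young libraries. The share was 0.393, 0.529 and 1.33 per 1000 in the young libraries. With every barcode thinned to 1000 UMIs and 364 to 1425 shallower barcodes left out per library, the young libraries had 4, 5 and 7 such barcodes, and thinning cannot raise the aged count above 0.

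These 26 barcodes held 61.5% of the young UMIs of Vpreb1, 96.4% of those of Vpreb2, 95.8% of Igll1 and 69.2% of Vpreb3. By library, the share of Vpreb1 UMIs in them was 47.4% at TN, 59.0% after 3 days and 72.8% after 14 days. Outside them, Vpreb1 was at 0.779 CPM in young and 0.676 CPM in aged libraries, a 1.15-fold difference. The rule that chose these barcodes uses Vpreb1, which all 26 held, so that taking them out had to lower the young level.

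Single Vpreb1 UMIs outside the surrogate light chain barcodes were found in 323 barcodes, of which 318 held none of the other 7 genes and 3 met the definition of a B-lineage barcode given below. Pdgfra was detected in 79.9% of them, against 64.4% of all barcodes. Their number per 1000000 UMIs of the library was 0.972, 0.549 and 0.699 in young libraries and 0.716, 0.563 and 0.711 in aged ones, so that the ages overlapped. Among Pdgfra+ barcodes without Ptprc, Pecam1 or the B-lineage definition, with a median of 7902 UMIs, 0.587% had a Vpreb1 UMI. This share was 0.696% (exact binomial interval 0.593% to 0.813%) at a median of 8737 UMIs in young mice and 0.457% (0.367% to 0.563%) at a median of 7099.5 UMIs in aged mice, and by library it was 0.541% to 0.949% and 0.374% to 0.546%, which overlap. The part of depth in the pooled difference was not tested. Among such barcodes with both endothelial genes Pecam1 and Cdh5 and no Pdgfra, with a median of 3315 UMIs, 0.236% had a Vpreb1 UMI. Whether the overlap with Top3b, RNA free in the suspension or another source adds to these single UMIs was not tested.

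The content of the 26 barcodes went beyond the genes that chose them. Cd79a was present in 25, Cd79b in 25, Mzb1 in 21 and Vpreb3 in all 26. Each held at least 1 gene of a strict precursor list of 6 (Rag1, Rag2, Dntt, Il7r, Arpp21 and Cecr2). Cecr2 is not specific here, since 34 of the 1199 barcodes with it met the B-lineage definition given below. It was the only gene of the list in a young 14D cold barcode of 6371 UMIs. Rag1 or Rag2, which cut the antigen receptor genes, was found in 19 of the 26. Dntt, the terminal transferase that adds bases at heavy chain joins, was found in 18. Ighm, the mu heavy chain, was found in 24 and the kappa constant gene Igkc in 14, whereas Ighd, a mark of mature naive B cells, was found in 3 and Ms4a1 (CD20) in 1. Mki67, which dividing cells express, was found in 5, and the fibroblast gene Pdgfra in 2. Other fibroblast genes were found in more of them, Dcn in 16, Col3a1 in 15 and Col1a1 in 13. More than 50 Dcn UMIs were held by 3 of the barcodes. The source of this fibroblast RNA was not tested. The 26 barcodes had a median of 3898 UMIs, from 655 to 25536.

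Dntt and Igkc were found together in part of these barcodes. Dntt without Igkc was seen in 11 barcodes, Igkc without Dntt in 7, both in 7 and neither in 1. The 18 barcodes with Dntt held a median of 26 UMIs of Vpreb1, Vpreb2 and Igll1 together, from 4 to 55, and a median of 0 UMIs of Igkc. The 8 without Dntt held a median of 7.5, from 2 to 23, and a median of 4.5 UMIs of Igkc. Per 10000 UMIs pooled over the barcodes, the surrogate light chain genes had 41.4 UMIs with Dntt and 27.2 without it. Deep barcodes weigh most in these pooled values. Without Dntt, barcodes of 9442 and 6371 UMIs held 3 and 2 such UMIs, and with Dntt a barcode of 22369 UMIs held 4. No difference per barcode is read from them. The ranges overlapped, and the number of barcodes is small. The Dntt-negative barcodes were also shallower, with a median of 2115.5 against 4277.5 UMIs, and the part of depth in this split was not tested.

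**Figure D3:**
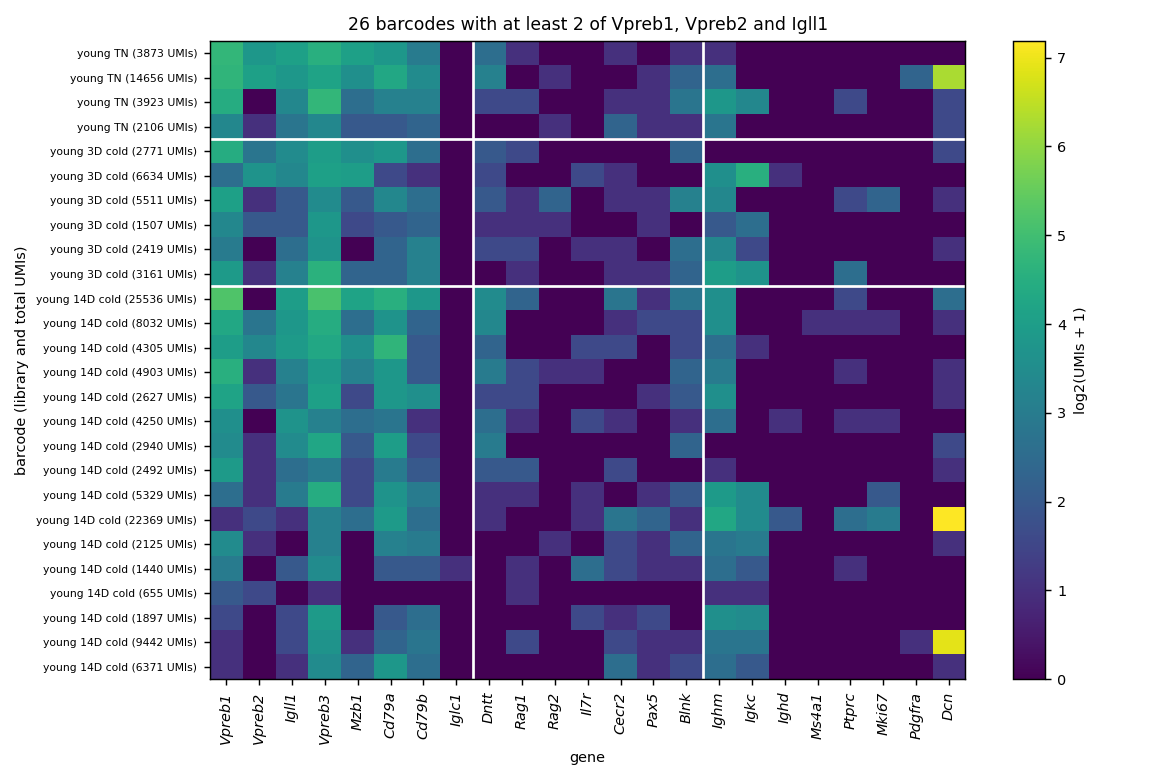
UMIs, as log2(UMIs + 1), of 23 genes (columns) in the 26 surrogate light chain barcodes (rows), grouped by library and by the presence of Dntt, with the total UMIs in brackets. White lines part the 8 selected genes, the precursor and early B-cell genes, and the remaining genes; Dntt is seen in 18 rows, Igkc in 14, Ighd in 3 and Ms4a1 in 1.

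B-lineage barcodes were defined without any of the 8 genes, as those with at least 2 of 15 genes of a B-cell list such as Pax5, Blk and Ms4a1. They numbered 49, 50 and 87 in young libraries and 27, 26 and 25 in aged ones. Surrogate light chain barcodes made up 8.16%, 10.0% and 17.2% of them in the young libraries (24 of 186 in all). In the aged libraries they made up 0 of 78, which allows a share of up to 3.85%. Since the rule for these barcodes uses genes selected on age, this difference is a description and not a separate result on composition. With at least 3 genes required, they made up 21 of 137 young and 0 of 50 aged barcodes. The definition with at least 2 genes also took in other leukocytes. Of its 264 barcodes, 45 held the myeloid gene Lyz2 and 23 held Siglech, a marker of plasmacytoid dendritic cells. Cd79a was detected in 133 of the 186 young and 37 of the 78 aged barcodes. Some genes of the list, such as Ralgps2 with 8.39% of its UMIs in B-lineage barcodes, were not specific. A count of B-lineage barcodes is therefore not a count of B cells.

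The rest of the B-lineage barcodes with at least 2 Cd79a UMIs, a second rule set after the values were seen, held genes of mature B cells at both ages. They are called other B-lineage barcodes below. There were 27, 22 and 55 in young libraries and 15, 10 and 10 in aged libraries, that is 2.65, 1.94 and 4.57 per 1000 against 1.34, 0.875 and 0.840 per 1000. The ages did not overlap. Since Cd79a was itself selected on its counts across age, nothing is read from that difference. With barcodes limited to 3 median absolute deviations of depth, genes and mitochondrial share, an alternative added after the values were seen, the numbers were 15, 6 and 19 in young and 12, 5 and 10 in aged libraries. The shares of 1.85, 0.636 and 1.84 against 1.30, 0.518 and 0.919 per 1000 then overlapped, and the limit removed 61.5% of the young and 22.9% of the aged barcodes. Ighd was found in 77.9% of the 104 young and 82.9% of the 35 aged barcodes, and Ms4a1 in 72.1% and 74.3%. Dntt was found in none of either, and Rag1 in 1 of each. Compared with the 26 surrogate light chain barcodes, these 139 barcodes had the class II genes that present antigen to T cells: Cd74 was at 10744 against 26.4 CPM and H2-Aa at 2952 against 19.8 CPM. Sox4, a transcription factor of early lymphoid cells, was at 83.4 against 1163 CPM, and Lef1, another, at 5.95 against 397 CPM. These contrasts are within the barcodes that the B-cell genes define and were not tested.

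**Figure D4:**
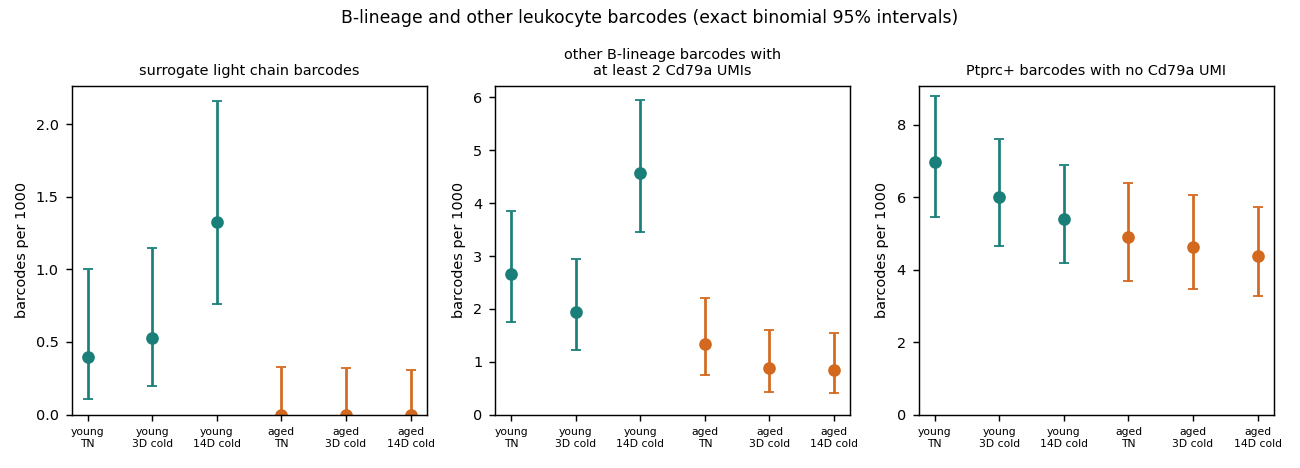
Barcodes per 1000 in each library for surrogate light chain barcodes, other B-lineage barcodes with at least 2 Cd79a UMIs, and barcodes with Ptprc and no Cd79a; bars are 95% intervals of the count (exact binomial). Each aged library is below each young one in all 3 panels, at 0 in the first.

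Vpreb3 (ENSMUSG00000000903, chr10:75943057-75949657, plus strand) encodes a VpreB-like protein of the endoplasmic reticulum and, unlike its namesakes, is not part of the classical surrogate light chain. It had 130, 145 and 280 UMIs in young libraries and 21, 9 and 12 in aged libraries, a 9.80-fold difference of level with no overlap. Outside the surrogate light chain barcodes the difference was 3.02-fold. In the other B-lineage barcodes it was present in 41 of 104 young barcodes, 39.4% (exact binomial 95% interval 30.0% to 49.5%), and in 8 of 35 aged ones, 22.9% (10.4% to 40.1%). Its level in them was 258 CPM (exact Poisson interval 217 to 305) in young and 105 CPM (57.5 to 176) in aged libraries. Vpreb3 was therefore not limited to surrogate light chain barcodes. The intervals of the share overlapped between the ages, and those of the level cover the counting of UMIs alone, which lay in few barcodes.

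Cd79a (ENSMUSG00000003379, chr7:24897381-24902197, plus strand) and Cd79b (ENSMUSG00000040592, chr11:106311341-106314762, minus strand) encode the signalling chains of the pre-B-cell and B-cell receptors. Cd79a had 388, 320 and 835 UMIs in young libraries and 187, 167 and 147 in aged libraries, a 2.28-fold difference of level. Cd79b had 117, 132 and 328 UMIs in young libraries and 46, 34 and 40 in aged libraries, a 3.57-fold difference. Neither gene overlapped between the ages. In summed counts, fewer cells of a type and less RNA per cell cannot be told apart. Within the other B-lineage barcodes Cd79b was at 705 CPM (636 to 780) in young and 631 CPM (503 to 781) in aged libraries, and it was detected in 85.6% and 85.7% of them. Cd79a, which helped to define these barcodes, was at 1892 and 1787 CPM. These intervals cover the counting of UMIs alone.

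Cd79a also had a scatter of single UMIs: 264 of its 399 positive barcodes in young libraries and 252 of 292 in aged libraries held 1. Of the single UMIs outside the surrogate light chain barcodes, 82.2% were in barcodes with Pdgfra. The share of Pdgfra+ barcodes with a Cd79a UMI was 0.957% and that of Pecam1+ Cdh5+ barcodes 0.215%. Barcodes with 2 or more Cd79a UMIs numbered 36, 29 and 70 in young and 17, 10 and 13 in aged libraries. Of the 516 barcodes with a single Cd79a UMI, 7 met the B-lineage definition, so that a count of Cd79a+ barcodes is not a count of B cells at either age.

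Mzb1 (ENSMUSG00000024353, chr18:35647267-35649367, minus strand) encodes a chaperone that assists antibody assembly and secretion. It had 94, 60 and 457 UMIs in young libraries and 15, 16 and 32 in aged libraries, a 7.19-fold difference with no overlap. A single barcode of the young 14D cold library held 293 of its 457 UMIs, and without that barcode the difference was 3.74-fold. The annotation places SPATA24 over Mzb1 on the same strand, so that its counts are uncertain where the genes overlap. In the aged 14D cold library 16 of the 26 positive barcodes had neither Ptprc, Cd79a nor the B-lineage definition.

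Iglc1 (ENSMUSG00000105906, chr16:19061618-19062071, minus strand) is a constant gene of the conventional lambda light chain, overlapped by 2010309G21Rik on the other strand. It had 8, 138 and 4247 UMIs in young libraries and 2, 3 and 25 in aged ones, and was the only gene of the 8 whose ages overlapped. The same young 14D cold barcode held 4138 of the 4247 UMIs. Of its 33938 UMIs, 12.2% were Iglc1, 18.0% Igkc, 9.82% the heavy chain gene Ighg2c and 1.67% Jchain, which joins antibody subunits. Vpreb1, Vpreb2, Vpreb3, Igll1, Ms4a1 and Pax5 were at 0 in it, and Mki67 was at 18 UMIs. Both kappa and lambda constant genes were thus high under 1 barcode, and whether it held more than 1 cell was not tested. The young to aged ratio of pooled levels was 109 with this barcode and 6.30 without it. In the surrogate light chain barcodes Iglc1 was nearly absent, with 1 UMI in 1 of 26. Of the 74 positive barcodes in the young 14D cold library, 55 had neither Ptprc, Cd79a nor the B-lineage definition and held 61 UMIs in all. In the aged 14D cold library this held for 15 of 18.

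Of the 8 genes, 7 had every aged library below every young one, whereas 11.1% of all genes tested did. Since the genes were selected on this contrast, nothing is read from that count. At TN the aged library was the lower for each of the 8, an order already fixed for those 7. The log2 ratio (of CPM + 0.1) there was -1.27 for Vpreb1, -1.95 for Vpreb3 and -0.56 for Iglc1, the last from 8 against 2 UMIs. The TN libraries are part of the same contrast, so this is not a separate observation.

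Other leukocytes that passed the CD45 sort were counted beside the B-lineage barcodes. Barcodes with Ptprc and no Cd79a made up 0.698%, 0.600% and 0.540% of the young libraries and 0.490%, 0.463% and 0.437% of the aged ones. The mean was 0.613 ± 0.0797% in young and 0.464 ± 0.0267% in aged libraries (SD, n = 3; two-sided exact permutation test, p = 0.1, the smallest that 3 against 3 libraries allow). Within 3 median absolute deviations of depth, genes and mitochondrial share, the young libraries had 0.703%, 0.477% and 0.359% and the aged libraries 0.532%, 0.436% and 0.441%, which overlap (p = 0.8, exact permutation). They also overlapped with every barcode thinned to 1000 UMIs, at 0.289% in aged TN against 0.256% in young 3D cold (p = 0.2, exact permutation). Thinned to 2000 UMIs they did not overlap (p = 0.1, exact permutation). With 1 sort per library, how completely CD45+ cells were removed and age cannot be told apart. Ptprc itself was detected in 9 of the 26 surrogate light chain barcodes (34.6%, 17.2% to 55.7%) and in 71.2% (61.4% to 79.6%) of the young other B-lineage barcodes.

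Among Cd79a+ barcodes, those with a gene of the strict precursor list made up 6.90%, 7.87% and 17.9% in young libraries and 1.92%, 3.81% and 1.20% in aged ones. The mean was 10.9 ± 6.12% in young and 2.31 ± 1.35% in aged libraries (SD, n = 3). Since Cd79a was itself selected on its counts across age, no test is given, and 264 of 399 young and 252 of 292 aged barcodes in the denominator held a single Cd79a UMI. The ages did not overlap, also with at least 2 UMIs of Cd79a required. With 1 UMI required they were 8 of 116, 10 of 127 and 28 of 156 barcodes in young libraries and 2 of 104, 4 of 105 and 1 of 83 in aged ones, so the shares rest on few barcodes. Cecr2, a gene of the strict list, was found in 501 young and 698 aged barcodes of any kind, of which 32 and 2 were B-lineage barcodes. By aged library these were 278 of 11218, 269 of 11435 and 151 of 11903 barcodes. The shares are therefore not counts of precursor B cells, and the part of Cecr2 in them was not tested.

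The genes that work with the 8 were followed in lists of B-cell genes, in the age test on summed libraries. Of 15 B-lineage genes tested, 3 fell in aged mice and 12 did not pass the test, with a median log2 fold change of -1.04 against -0.00033 over all genes. Pax5, the factor that commits cells to the B lineage, fell by 1.94 on the log2 scale (SE 0.384, edgeR adjusted p = 0.0385). The kinase gene Blk fell by 1.88 (SE 0.396, edgeR adjusted p = 0.0445) and Ms4a1 by 1.49 (SE 0.268, edgeR adjusted p = 0.0310). Blk, with 61 UMIs in young and 12 in aged libraries, passed the filter on low counts through the young libraries alone, so nothing is read from its call. On its aged levels alone (0.131, 0.0402 and 0.154 CPM) Pax5 would not have passed this filter either, which limits its call. Levels of all 3 genes were low, at 0.415 ± 0.207 CPM in young and 0.108 ± 0.0601 CPM in aged libraries for Pax5. These calls were lost without the young 3D cold, young 14D cold, aged 3D cold or aged 14D cold library, with adjusted p between 0.104 and 0.199, and that of Blk also without the young TN library (0.0639).

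Of 6 mature B-cell genes, 2 fell and 4 did not pass, with a median of -1.39. Among them Fcer2a (CD23) fell by 1.69 on the log2 scale (SE 0.326, edgeR adjusted p = 0.0364). Cd79a+ barcodes held 87.2% of its UMIs, so its call is not independent of the selection on age either. On its aged levels alone (0.102, 0.121 and 0.134 CPM) it would not have passed the filter on low counts, which limits its call. Its call was lost on leaving out the same 4 libraries in turn, with adjusted p from 0.132 to 0.148, and also without the young TN library (0.0590). Among 12 precursor genes, 9 could be tested and none passed. Their median was -0.0070. Several genes of this list were detected mainly outside B cells: B-lineage barcodes held 0.201% of the UMIs of Akap12, 1.26% of Sox4, 1.34% of Erg and 1.88% of Bcl7a, and made up 34 of the 1199 barcodes with Cecr2. In the strict precursor list 3 genes could be tested, with a median of -0.81, and none passed. Dntt had 15, 15 and 56 UMIs in young libraries and 0, 7 and 3 in aged ones (log2 fold change -2.51, edgeR adjusted p = 0.0903). It passed the filter on low counts through the young libraries alone. Rag1 had 3, 8 and 20 against 2, 0 and 0 UMIs, and Rag2 2, 6 and 3 against none, both too few to be tested. Myb, a factor of lymphoid precursors, and Lef1 had log2 fold changes of -1.66 and -1.64 (edgeR adjusted p = 0.163 and 0.211).

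Of the 12 genes of pre-B-cell receptor signalling, 2 fell and 10 did not pass, with a median of -0.27. The 2 were Foxo1 and Bcl6, which fell by 0.33 (SE 0.0494, edgeR adjusted p = 0.0208) and 0.22 (SE 0.0476, edgeR adjusted p = 0.0455). Foxo1 was at 105 ± 2.36 CPM in young and 84.0 ± 2.06 CPM in aged libraries, and Bcl6 at 37.4 ± 8.26 and 32.5 ± 8.07 CPM. Both are expressed in stromal cells, and B-lineage barcodes held 0.360% of the Foxo1 UMIs and 0.326% of the Bcl6 UMIs. Both calls were lost without the young 3D cold, young 14D cold, aged 3D cold or aged 14D cold library, with adjusted p between 0.0972 and 0.280, and also without the temperature term (0.0501 for Foxo1 and 0.582 for Bcl6). Syk, Blnk and Btk, the kinases and adaptor next to the receptor, had log2 fold changes of -0.06, -0.34 and -0.62 and did not pass (edgeR adjusted p = 0.911, 0.300 and 0.316). B-lineage barcodes held 4.94% of the Syk UMIs, against 75.7% for Blnk and 65.4% for Btk. Lyn (3.88%) and Bach2 (2.41%) of this list also lay mostly elsewhere, so the median of the list is not one of B cells.

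**Figure D5:**
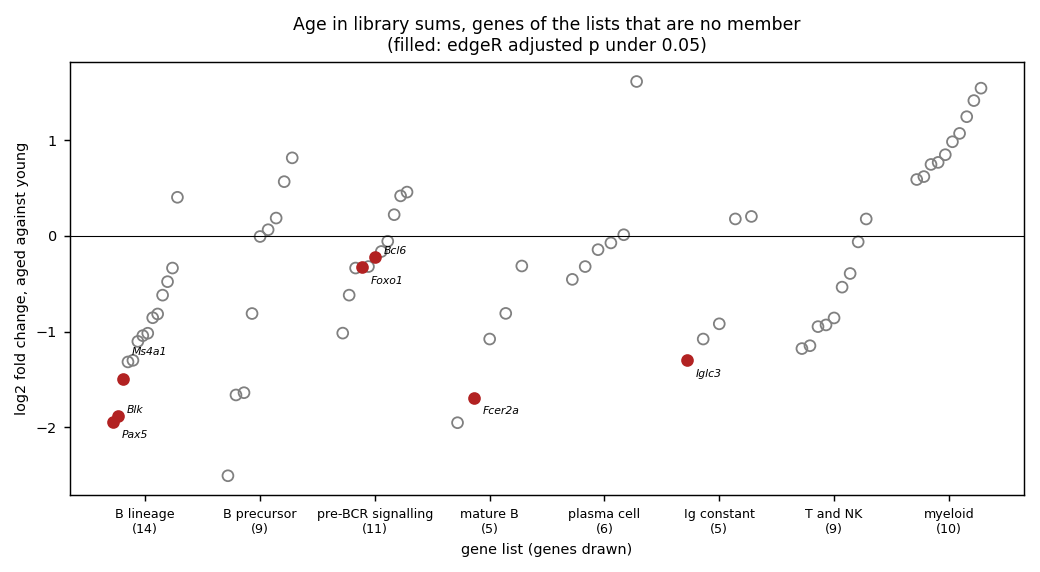
Log2 fold change, aged against young, of genes in 8 lists (x axis, with the number of genes drawn), the 8 selected genes left out; filled points passed edgeR's test at an adjusted p under 0.05. Filled points are Pax5, Blk and Ms4a1 (B lineage), Foxo1 and Bcl6 (pre-B-cell receptor signalling), Fcer2a (mature B) and Iglc3 (Ig constant), all below 0.

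Temperature, which played no part in the selection, was tested for 6 of the 8 genes with age as a term. The F test was joint over both cold durations. Each p therefore covers 3 and 14 days together, although the fold change beside it is that of 14 days against TN. The background was low, with 0.292% of 15730 genes past the threshold. Iglc1 alone of the 6 passed, with a log2 fold change of 8.68 after 14 days of cold against TN (edgeR adjusted p = 0.0111). Without the barcode that held 4138 Iglc1 UMIs, an alternative added after the values were seen, the value was 4.12 and the call was lost (edgeR adjusted p = 0.163). It was also lost without the young 14D cold library (6.37, edgeR adjusted p = 0.180) and without the young 3D cold library (8.69, edgeR adjusted p = 0.120). Mzb1, carried in part by the same barcode, had a log2 fold change of 2.07 (edgeR adjusted p = 0.0722), and 1.10 without that barcode (edgeR adjusted p = 0.104). The young 14D cold library had the highest level of 7 of the 8 genes, Vpreb2 being the exception. Among the aged libraries Vpreb1 and Vpreb3 were highest at TN, with 0.745 and 0.307 CPM against 0.711 and 0.230 CPM after 14 days. For Vpreb1, Vpreb3, Cd79a and Cd79b the adjusted p lay between 0.181 and 0.324. Vpreb2 and Igll1 passed the filter on low counts through the young libraries alone, with 1 young library per temperature behind their values, and no test is given for them. Leaving out the young TN or the aged TN library left 1 library at TN. The number of genes called varied widely among fits that left out a library. Calls that Vpreb3, Mzb1, Cd79a and Cd79b gained without a TN library are therefore not read. For Vpreb3 the log2 fold change after 14 days had opposite signs, -0.32 without young TN and 1.15 without aged TN.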

How the data were processed

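Per the labels and the methods, stromal vascular cells were captured with a 10x Genomics 3′ kit (v3.1), and the authors made the deposited UMI counts per gene and barcode with Cell Ranger 3.1.0 on mm10. The counts are raw: the filters and the integration that the study applied later are not in them. The 8 genes, the gene lists and the rules were chosen with earlier results of these data known. UMIs were summed over all barcodes of a library, and CPM are per 1000000 UMIs of that library. Age (with temperature) and temperature (with age) were tested on library sums with edgeR 4.0.16 (TMM, filterByExpr, quasi-likelihood F test, Benjamini-Hochberg, threshold 0.05, 2 residual degrees of freedom) in R 4.3.3. The temperature test was joint over 3 and 14 days of cold. The labels name no cultures or batches, and with 1 library per group p-values measure the spread between libraries. SEs were derived from the log2 fold change and the F statistic. All 8 genes passed the filter on low counts, Vpreb2 and Igll1 through the young libraries. Shares were compared by exact permutation over libraries (Python 3.11.15, scipy 1.17.1); binomial and Poisson intervals are exact at 95%, and 3 counts set the limit for a 0. Genes named in the text are the 8 and members of 16 lists that passed a test or define a cell type. They also include the 10 genes most concentrated in Cd79a+ barcodes (at least 50 UMIs there) and the 5 most like the 8 across libraries (mean of at least 1 CPM). Other genes were named after their values were seen. Results of 2 genes of these lists are not reported here, although counts over a list include them; the plots leave them out. The edgeR fit was tested on simulated counts. DESeq2 1.42.0, RLE factors, no filter on low counts, a depth filter of 3 median absolute deviations, thinning to 1000 or 2000 UMIs, at least 2 UMIs and each library left out were alternatives. Positions are GENCODE on GRCm38.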

Additional observations from a re-analysis of the deposited data

How the results depend on the processing

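The age fit called 1416 genes, 275 without the temperature term and 143 to 2934 when a library was left out. The temperature fit called 46, 957 with DESeq2, 571 with no filter on low counts, 4 with the depth filter, 4 without the age term and 1 to 2811 when a library was left out. Barcodes with 2 or more of the 8 genes differed by -2.56 per 1000 (aged minus young), and by -0.889 with the depth filter, which removed 8 of the 26 surrogate light chain barcodes. With the depth filter the difference in surrogate light chain barcodes was -0.629 per 1000, against -0.751. Among temperature values the log2 fold change after 14 days changed sign for Vpreb1 with the depth filter (0.330 to -0.039) and for Vpreb2 without the age term (-0.038 to 0.043). It also did when 1 library was left out, ranging from -0.073 (without young 14D cold) to 0.580 for Vpreb1, -0.196 to 0.209 (without young TN) for Vpreb2, and, lowest without young TN, -0.317 to 1.15 for Vpreb3 and -0.015 to 1.29 for Igll1. The cause was not tested. Iglc1 lost its call with the depth filter (4.62, edgeR adjusted p = 0.171) and without the age term (8.63, edgeR adjusted p = 0.590), and Mzb1 gained one with DESeq2 and with no filter. The list genes named as falling with age (Pax5, Blk, Ms4a1, Foxo1, Bcl6, Fcer2a and Iglc3) kept their direction under each alternative that tested them. With the depth filter, log2 fold changes were -1.86 for Pax5, -1.05 for Ms4a1, -0.87 for Fcer2a and -0.27 for Iglc3, none past the threshold (edgeR adjusted p = 0.0646, 0.0691, 0.250 and 0.550). Without the temperature term the calls of Pax5, Blk, Ms4a1, Foxo1, Bcl6 and Iglc3 were lost (edgeR adjusted p from 0.0501 to 0.582), and with DESeq2 those of Bcl6, Fcer2a and Iglc3 (DESeq2 adjusted p = 0.0912, 0.0904 and 0.0729). The temperature term sets young beside aged libraries within each temperature. No paired analysis was possible because, beyond that term, each group holds 1 library and no replicate number links libraries. Values of 1 to 3 UMIs, and the absence of Vpreb2 in aged mice, are limited by the depth of the libraries and by the few leukocytes that passed the sort.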

Other observations

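Outside the 8 genes, those most concentrated in Cd79a+ barcodes were mostly genes of B cells. Of the UMIs of Fcmr, the IgM Fc receptor, 95.2% were in Cd79a+ barcodes, of Ms4a1 94.2%, of Ighd 93.8%, of Pax5 89.1% and of Fcer2a 87.2%. Gm31243 (93.4%) and Gm30211 (88.8%) were predicted genes with a similar share. Ighg2c (97.7%) and Hamp (87.6%), the gene of the iron hormone hepcidin, met the same rule through 1 barcode each, which held 3333 of 3414 and 134 of 153 UMIs. Of the 8 genes, Igll1 had 94.8% of its UMIs in Cd79a+ barcodes and Vpreb1 49.4%.

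The 5 genes whose level followed the summed 8 genes most closely over the 6 libraries were Krt10, Mrps24, Cc2d1a, Mbd3 and Mydgf, with Pearson's r between 0.985 and 0.997 among 12397 genes compared. The sum is dominated by Iglc1 in the young 14D cold library, and the 6 points share library depth and composition. Krt10 ranged only from 23.5 to 30.6 CPM.

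Dntt was also found outside the surrogate light chain barcodes. Of 10 Dntt UMIs in aged libraries, 9 were in 2 barcodes that had 13 and 26 UMIs of Siglech, a marker of plasmacytoid dendritic cells, and none of the 8 genes other than Mzb1 (3 and 5 UMIs). Such barcodes were also found in young libraries. In the young 14D cold library, barcodes with 21 and 14 Siglech UMIs held 2 and 3 Dntt UMIs. In the young 3D cold library, a barcode with 13 Siglech UMIs held 3. In the aged TN library, 1 barcode had 2 Rag1, 6 Vpreb3, 14 Cd79a and 5 Cd79b UMIs and no Vpreb1, Vpreb2 or Igll1.

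Among antibody genes, Igkc was at 9.94, 9.67 and 94.2 CPM in the young libraries and 4.38, 8.43 and 279 CPM in the aged libraries, and Jchain at 0.192, 0.0687 and 6.96 against 0.117, 0.509 and 24.3 CPM, in both cases highest in the aged 14D cold library. In the young 14D cold library the barcode with 4138 Iglc1 UMIs also held 6122 Igkc and 567 Jchain UMIs. Over all libraries, B-lineage barcodes held 46.9% of the Igkc and 36.6% of the Jchain UMIs. These levels are therefore not levels of B-lineage barcodes, and the source of the other UMIs was not tested. Of 5 Ig constant genes tested (median log2 fold change -0.92) Iglc3 fell by 1.30 on the log2 scale (SE 0.282, edgeR adjusted p = 0.0471), and none of 6 plasma cell genes passed. Iglc3 lost its call in 7 of 11 alternatives, among them leaving out the young 3D cold, young 14D cold, aged 3D cold or aged 14D cold library (adjusted p from 0.193 to 0.224).

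Among lists of other cells, none of 9 T and NK cell genes (median log2 fold change -0.86), 10 myeloid genes (0.91), 7 leukocyte genes (-0.49), 6 plasmacytoid dendritic cell genes (-0.36) or 6 erythroid genes (0.18) passed the age test. Of 6 granulocyte precursor genes Prtn3 rose by 0.61 and S100a9 fell by 6.36 on the log2 scale (edgeR adjusted p = 0.0320 and 0.00127). The 1587 UMIs of Prtn3 were scattered over 1407 barcodes, so its rise is not a count of granulocyte precursors. The 1313 UMIs of S100a9 lay in 16 barcodes. S100a9 was at 0.678, 14.2 and 0.0229 CPM in young libraries and 0, 0.174 and 0 CPM in aged ones, so that the ages overlapped, and its call was lost without the young 3D cold library (edgeR adjusted p = 0.0910). Of 11 cell cycle genes Mki67 and Top2a fell, by 0.92 and 0.85 (edgeR adjusted p = 0.0331 and 0.0361). Of 4 fibroblast genes Col1a1 and Col3a1 fell, by 1.31 and 0.99 (edgeR adjusted p = 0.00290 and 0.00808), and of 4 endothelial genes Cldn5 rose by 0.88 (edgeR adjusted p = 0.00930). The calls of Prtn3, Mki67 and Top2a were lost without the young 3D cold, young 14D cold, aged 3D cold or aged 14D cold library (adjusted p from 0.0612 to 0.209), that of Col1a1 without young 14D cold (0.0620), those of Col3a1 without young or aged 14D cold (0.148 and 0.135) and that of Cldn5 without young or aged 3D cold (0.0694 and 0.0632). These are not all the losses. Over 11 alternatives each, calls were lost in 5 for Prtn3, 6 for Mki67 and 5 for Top2a. They were lost in 2 for Col1a1, 3 for Col3a1 and 3 for Cldn5, and in 2 of 10 for S100a9.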
